A study of Homo sapiens with 4 samples.

Results

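DDB2, XPC, POLH and RRM2B are 4 of the 20163 protein-coding genes of the annotation and are targets of the tumour suppressor p53 that act in DNA repair. In each peak list, a peak was taken for a gene when its summit lay in the gene body or within 25 kb of it. By this rule the 4 genes held 2 of 488, 6 of 4326, 0 of 12 and 2 of 2023 peaks in the 4 lists described next.

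The data are ChIP-seq libraries, made by pulling down DNA crosslinked to p53 with an antibody and sequencing it. They compare p53 with and without a single changed residue, Lys120, at its DNA sites, the response elements (REs). All libraries came from H1299, a human lung cancer cell line with no p53 of its own, made into stable lines that express the tetracycline repressor and carry either wild-type (WT) p53 or p53 with Lys120 changed to arginine (K120R) under its control. Each line was left untreated or given tetracycline (Tet) for 24 h, which releases the repressor. There was 1 library in each of the 4 groups (WT or K120R p53, each untreated or Tet-treated), all pulled down with the FL393 antibody, and the level of p53 in the cells cannot be read from peak lists. Differences between groups therefore have no replicate check, no p-value is given for them, and the 95% intervals below cover counting error only.

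p53 binds DNA as a tetramer at REs made of a pair of decamers, each with a core of 4 bases, C-A/T-A/T-G, between purines and pyrimidines. Several of its targets serve repair of bulky lesions such as those made by ultraviolet light. DDB2 and XPC recognise such damage and start nucleotide excision repair, POLH is the polymerase that copies past ultraviolet lesions, and RRM2B is the ribonucleotide reductase subunit that supplies deoxynucleotides in cells that are not dividing.

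The REs of DDB2, XPC and POLH are shown first, since the positions next to the cores are those that the study compares. The RRM2B sequence is not printed here. Each is written 5′ to 3′ as the study lists it, matched to GRCh37 (hg19), with positions 3, 8, 13 and 18 in capitals. The 2 below the first 3 are the REs of the p53 targets CDKN1A, which stops the cell cycle, and PLK2, a stress kinase, for comparison.
DDB2: ggGcttgTtcaaAccagCtt
XPC: ttGcttgTctggGcaaaTtc
POLH: gaTcctgCccggGcaacCgt
CDKN1A: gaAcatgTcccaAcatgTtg
PLK2: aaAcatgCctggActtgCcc

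The DDB2 RE lay on chromosome 11 from 47236520 to 47236539 and reached from 5 bp before the start of the main transcript into its 5′ UTR. It departed from the 20-bp p53 consensus at 1 position, position 15 in the second core, and had 2 G/C bps among the 4 compared positions. The XPC RE lay in the 5′ UTR in exon 1, on chromosome 3 from 14220070 to 14220089, with 3 mismatches, 1 of them in a core, and 2 G/C bps. The POLH RE lay in the non-coding exon 1 on chromosome 6 from 43543975 to 43543994, with 4 mismatches, 2 of them in a core, and 3 G/C bps. The RRM2B RE lay in intron 1, on chromosome 8 from 103249068 to 103249087, with 1 mismatch, none in a core, and 2 G/C bps at positions 8 and 13. DDB2 and XPC thus had equal numbers of G/C bps but carried them at positions 3 and 18 and at positions 3 and 13. CDKN1A had none and PLK2 had 2.

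Among all 4326 WT peaks of Tet-treated cells, 20.0% held a 20-bp window with at most 1 mismatch within 100 bp of the summit, as DDB2 and RRM2B did. At most 2 mismatches were found at 53.2% of the peaks, at most 3, as at XPC, at 80.4% and at most 4, as at POLH, at 91.9%. Each listed RE was the best match around the summit of its gene's main peak, and the next best windows had 5 or 6 mismatches. In the RefSeq promoters (35114 windows of 300 bp on GRCh38.p14, with both strands read), 0.0940% held a window with at most 1 mismatch, which 1 of the 2 DDB2 windows, the one that holds the listed RE, did. The best match in the other DDB2 window had 5 mismatches, as few as in 70.5% of promoters. At most 3 mismatches, as in the XPC promoter, were found in 5.20% of them. The POLH RE lies past the end of its promoter window, and no window matched RRM2B.

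In untreated cells with WT p53, 2 of the 4 genes had a peak, against 2.59% of all protein-coding genes. After Tet, all 4 had one with WT p53, against 19.1% of genes. With K120R p53, none of the 4 had a peak in untreated cells, against 0.0347% of genes, and 2 had one after Tet, against 9.46% of genes. At a -log10 q of at least 10 the latter count was 1, since the DDB2 peak with K120R p53 (-log10 q of 8.94) was lost and that of RRM2B (19.2) was not. DDB2 and RRM2B were the genes with a peak in WT untreated, WT Tet-treated and K120R Tet-treated cells, a combination seen at 323 genes (1.60%). XPC and POLH had a peak only in WT Tet-treated cells, as did 2398 genes (11.9%).

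The lists differed in ways that limit comparison between them. The ChIP libraries held 33059650 to 34857204 tags, but the fragment length used to call peaks was 170 bp for WT Tet-treated cells, 68 bp for K120R Tet-treated cells and 64 bp for both untreated libraries, and all but the first are shorter than the reads. A longer fragment puts more tags over a summit, so values were read within a list, as fragments over the summit, as fold enrichment over the local input background and as the percent of the list with a lower fold enrichment. The fewest fragments of any peak were 7, 12, 16 and 8 in the lists of untreated WT, Tet-treated WT, untreated K120R and Tet-treated K120R cells.

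At DDB2, the summit had 40 fragments in WT untreated cells (28.6 to 54.5), 223 in WT Tet-treated cells (195 to 254) and 28 in K120R Tet-treated cells (18.6 to 40.5). The 3 summits lay 28, 16 and 22 bp past the transcript start, in the 5′ UTR, and within 23.5 bp of the RE centre. No peak was called in K120R untreated cells. Fold enrichment was 18.4 in WT untreated cells, rank 42 of 488, and 45.8 in WT Tet-treated cells, rank 61 of 4326, which placed DDB2 above 98.6% of that list. Among the 172 WT peaks within 1 kb of a transcript start, it ranked 3. In K120R Tet-treated cells its fold enrichment of 5.43 (3.68 to 7.76) ranked 1561 of 2023, above 22.9% of the list.

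The place of DDB2 in the K120R list depended on the measure. By fragments it ranked 261 of 2023, above 85.8% of the list. The local background at this summit was 4 input fragments (1.09 to 10.2), higher than at 96.4% of K120R peaks, while that at RRM2B was 2 (0.242 to 7.23). The ratio of these backgrounds was 2.00 with an interval of 0.287 to 22.1, and the 4 and 2 input fragments cannot be told apart at this depth.

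At XPC, a single peak was called, in WT Tet-treated cells. It ran from 14219858 to 14220218 on chromosome 3 with 61 fragments over the summit (46.7 to 78.4) and a fold enrichment of 8.06 (6.19 to 10.3). This was rank 2014 of 4326 by fold enrichment, above 53.5% of the list, but rank 911 by fragments, above 78.3%. The summit lay in the coding part of exon 1, 91 bp past the start, and 69.5 bp from the RE centre, farther than at 96.3% of the 1334 listed REs with a WT peak (median 12.5 bp). The start of LSM3, an RNA-processing gene, is close by: the same summit lay 307 bp from that gene.

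POLH resembled XPC in its values. Its only peak, in WT Tet-treated cells, ran from 43543809 to 43544177 on chromosome 6, with 64 fragments (49.3 to 81.7), a fold enrichment of 9.53 (7.37 to 12.1) and rank 1620 of 4326. The summit lay 73 bp past the start and 10.5 bp from the RE centre, and 220 bp from the neighbouring gene XPO5, a nuclear export factor. The POLH fragments were 1.05 times those of XPC with an interval of 0.727 to 1.52, so these neighbours in order were not distinguishable at this depth.

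RRM2B had the highest values of the 4 genes in each list where it had a peak. Its main peak in intron 1 had 55 fragments over the summit in WT untreated cells (41.4 to 71.6), 278 in WT Tet-treated cells (246 to 313) and 32 in K120R Tet-treated cells (21.9 to 45.2). Fold enrichment was 21.5, 62.2 and 10.3, with ranks of 26 of 488, 18 of 4326 and 353 of 2023. The summits lay 2106, 2108 and 2135 bp past the transcript start. RRM2B also had 2 weaker peaks, both in WT Tet-treated cells only. The one in intron 3 had 25 fragments and a fold enrichment of 6.30, and the one at -2040 bp, upstream of the start, had 42 fragments and a fold enrichment of 4.17. The best window near either summit had 3 mismatches and 3 G/C bps.

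**Figure D1:**
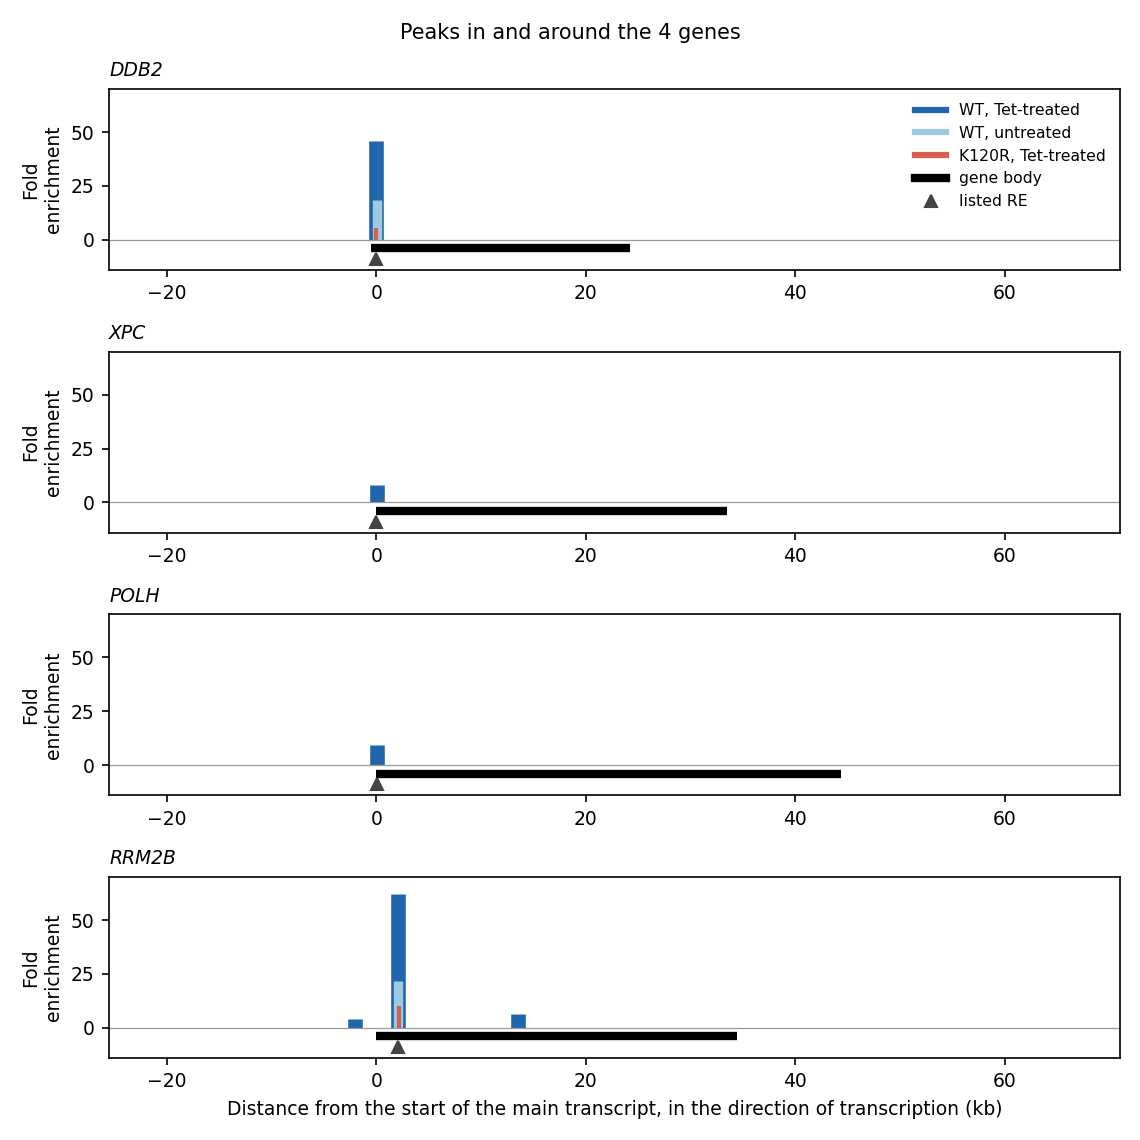
Peaks in and around DDB2, XPC, POLH and RRM2B, with the distance of the summit from the start of the main transcript (kb) on the x axis and fold enrichment within the library's own list on the y axis. Bars of different width stand at the true summit positions, so that overlapping peaks of the 3 libraries can be seen (their width has no meaning), and RRM2B alone had peaks away from its RE, at -2040 bp and in intron 3.

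Within WT Tet-treated cells the order of the genes by fragments was RRM2B, DDB2, POLH and XPC. RRM2B had 1.25 times the fragments of DDB2 (1.04 to 1.49), DDB2 had 3.48 times those of POLH (2.63 to 4.68), and POLH and XPC did not separate. RRM2B over DDB2 was 1.38 in WT untreated cells (0.899 to 2.12) and 1.14 in K120R Tet-treated cells (0.667 to 1.97), intervals that both include equality. The fold enrichments gave ratios of 1.17, 1.36 and 1.90 in WT untreated, WT Tet-treated and K120R Tet-treated cells.

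**Figure D2:**
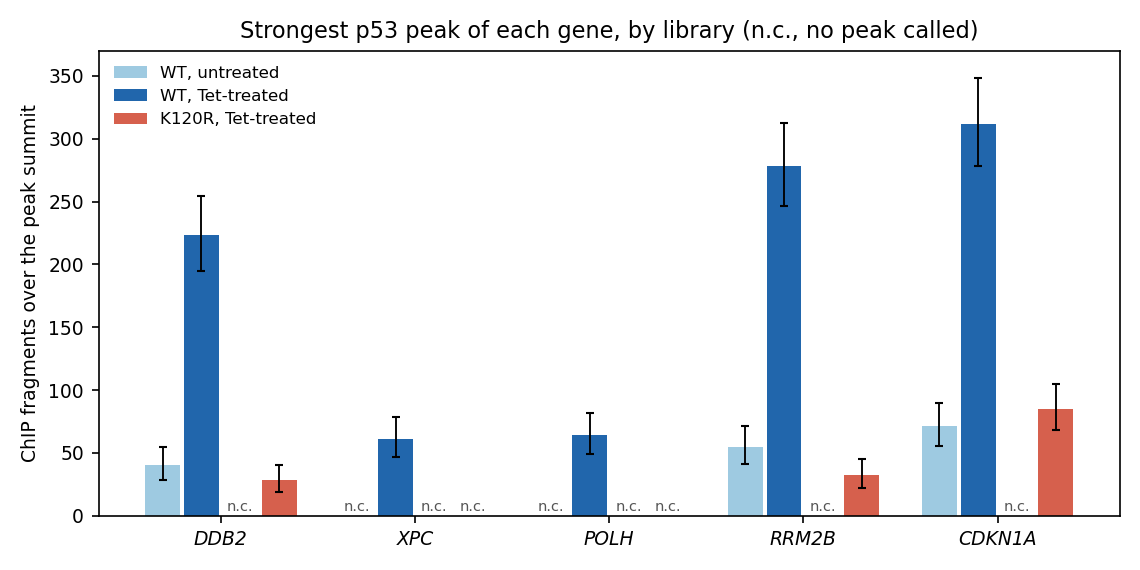
ChIP fragments over the summit of the strongest peak of each of the 4 genes and of CDKN1A (y axis), by library (colour), with 95% Poisson intervals as error bars and n.c. where no peak was called. DDB2 and RRM2B reached 223 and 278 fragments with WT p53 after Tet and 28 and 32 with K120R p53, while bars of different libraries also differ in fragment length (170 bp in WT Tet-treated, 64 or 68 bp in the others).

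How DDB2 and RRM2B stood beside other p53 targets in the K120R library depended on the target. CDKN1A, with 0 G/C bps, had the strongest peak of the K120R Tet-treated list by fold enrichment. In WT Tet-treated cells DDB2 had 71.5% (59.9 to 85.2) and RRM2B 89.1% (75.5 to 105.1) of the CDKN1A fragments. In K120R Tet-treated cells they had 32.9% (20.7 to 51.0) and 37.7% (24.3 to 57.1), below the WT Tet-treated intervals. In WT untreated cells, whose fragment length of 64 bp is close to that of the K120R library, DDB2 had 56.3% (37.3 to 84.2) and RRM2B 77.5% (53.5 to 112). The intervals of DDB2 in WT untreated and K120R Tet-treated cells overlapped, and those of RRM2B overlapped too. Overlap of intervals does not show that values are equal, here or below, and these differences were not tested. In WT Tet-treated cells they had 73.6% (61.6 to 87.8) and 91.7% (77.7 to 108) of the fragments of MDM2, also with 0 G/C bps. Beside MDM2 the WT untreated and K120R Tet-treated intervals did not overlap: DDB2 had 142.9% (86.0 to 240.4) of the MDM2 fragments in WT untreated cells and RRM2B 196.4% (123 to 322), against 32.2% (20.2 to 49.8) and 36.8% (23.7 to 55.7) in K120R Tet-treated cells. Beside PLK2, which has 2 G/C bps as they do, the percents in K120R Tet-treated cells were not lower than in WT Tet-treated cells, with wide intervals. DDB2 had 88.1% (73.3 to 106) of the PLK2 fragments in WT Tet-treated and 103.7% (58.9 to 183) in K120R Tet-treated cells, and RRM2B had 109.9% (92.3 to 131) and 118.5% (68.8 to 206). In WT untreated cells they had 117.6% (72.6 to 192) and 161.8% (104 to 255.9), which overlap the K120R values. Beside GADD45A, with 2, DDB2 had 109.9% (90.4 to 134) in WT Tet-treated and 65.1% (39.0 to 107) in K120R Tet-treated cells, with intervals that overlap. RRM2B had 136.9% (114 to 165) and 74.4% (45.6 to 120), which overlap too. In WT untreated cells DDB2 had 105.3% (65.8 to 169) and RRM2B 144.7% (94.0 to 225) of the GADD45A fragments, with intervals that overlap those of K120R Tet-treated cells. MDM2, GADD45A and PLK2 were added as references after the CDKN1A values were seen.

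WT p53 in untreated cells and K120R p53 after Tet could be set side by side as fragments per 1000000 ChIP tags, since their fragment lengths of 64 and 68 bp are close. DDB2 had 1.21 in WT untreated cells and 0.803 in K120R Tet-treated cells, a ratio of 1.51 (0.906 to 2.54). RRM2B had 1.66 and 0.918, a ratio of 1.81 (1.15 to 2.90), so more fragments lay over its RE with WT p53 before Tet than with K120R p53 after it. Over the 208 listed REs with a peak in both lists the median ratio was 0.857, with quartiles of 0.582 and 1.23, and RRM2B lay above 93.2% and DDB2 above 86.5% of them. Listed REs that lack a peak in the WT untreated or the K120R Tet-treated list have no ratio, so these percents hold among the 208 only. CDKN1A had a ratio of 0.881 (0.634 to 1.22) and MDM2, the p53 antagonist, 0.339 (0.213 to 0.525). PLK2, with 2 G/C bps like DDB2 and RRM2B, had 1.33 (0.778 to 2.29), and the damage sensor GADD45A, also with 2, had 0.932 (0.586 to 1.48). PLK3, another kinase with 2 G/C bps, had WT fold enrichments of 11.1 before and 21.5 after Tet and, like XPC and POLH, no K120R peak.

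**Figure D3:**
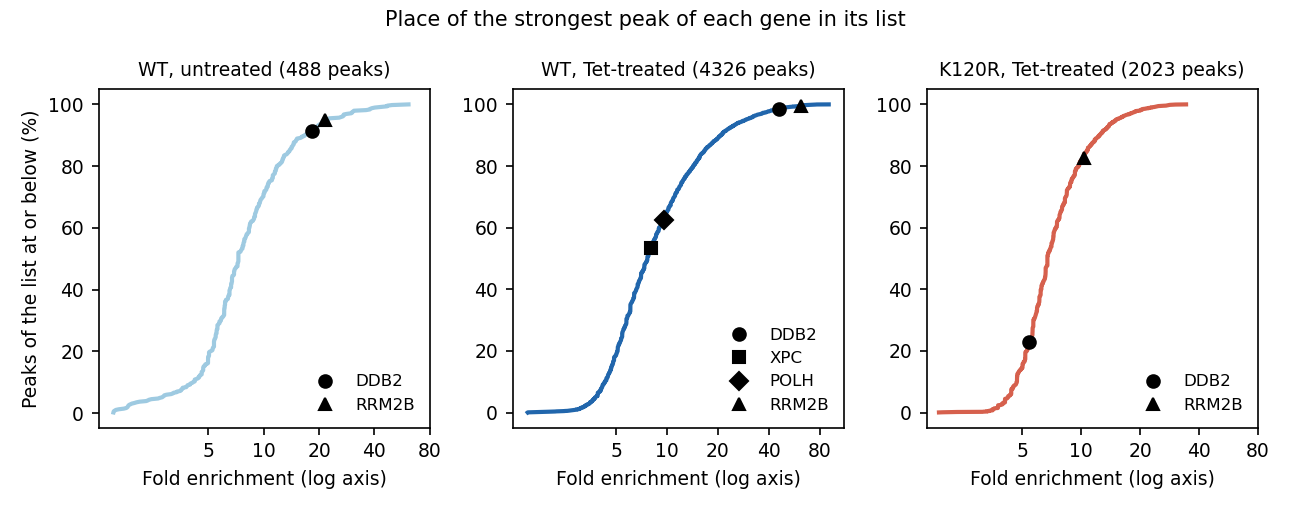
Cumulative share of the peaks of each list (y axis, percent) by fold enrichment (x axis, log scale) in WT untreated, WT Tet-treated and K120R Tet-treated cells, with the strongest peak of each of the 4 genes marked. In WT Tet-treated cells DDB2 and RRM2B lay above 98.6% and 99.6% of the list and XPC and POLH above 53.5% and 62.6%, while in K120R Tet-treated cells DDB2 lay above 22.9% and RRM2B above 82.6%.

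Of the 1334 listed REs with a WT peak in Tet-treated cells, 541 also had a K120R peak (40.6%), as did the REs of DDB2 and RRM2B and not those of XPC and POLH. The study chose these REs from the same WT library, so the list is no independent sample of p53 sites. The share with a K120R peak was 77.6% at 0 G/C bps, 55.7% at 1, 34.3% at 2, 18.3% at 3 and 14.3% at 4. DDB2, XPC and RRM2B fell in the class with 2, where 164 of 478 REs had a K120R peak (30.1 to 38.8%), and POLH in the class with 3, where 53 of 289 had one (14.05 to 23.3%).

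REs with WT values like those of each gene were then counted. Among the other REs with a WT fold enrichment within 1.25-fold of that of DDB2, 74 of 88 had a K120R peak, and 23 of 28 did (82.1%, 63.1 to 93.9) when 2 G/C bps were required as well. For RRM2B the counts were 38 of 42 and 15 of 15. For XPC they were 69 of 284 and 19 of 94 (20.2%, 12.6 to 29.8), and for POLH 94 of 344 and 12 of 75 (16%, 8.55 to 26.3). DDB2, RRM2B and XPC have equal numbers of G/C bps. The REs around DDB2 and RRM2B in WT fold enrichment had a K120R peak more often than those around XPC. Their intervals did not overlap that of XPC. A missing peak does not show absence of binding, since no peak of the K120R Tet-treated list had fewer than 8 fragments. With WT p53 after Tet, XPC and POLH had 61 and 64 fragments, against 223 at DDB2 and 278 at RRM2B. Whether K120R binding at XPC and POLH lay below what could be called was not tested. The presence or absence of a K120R peak at each of the 4 genes was that of the majority of REs of like WT fold enrichment.

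**Figure D4:**
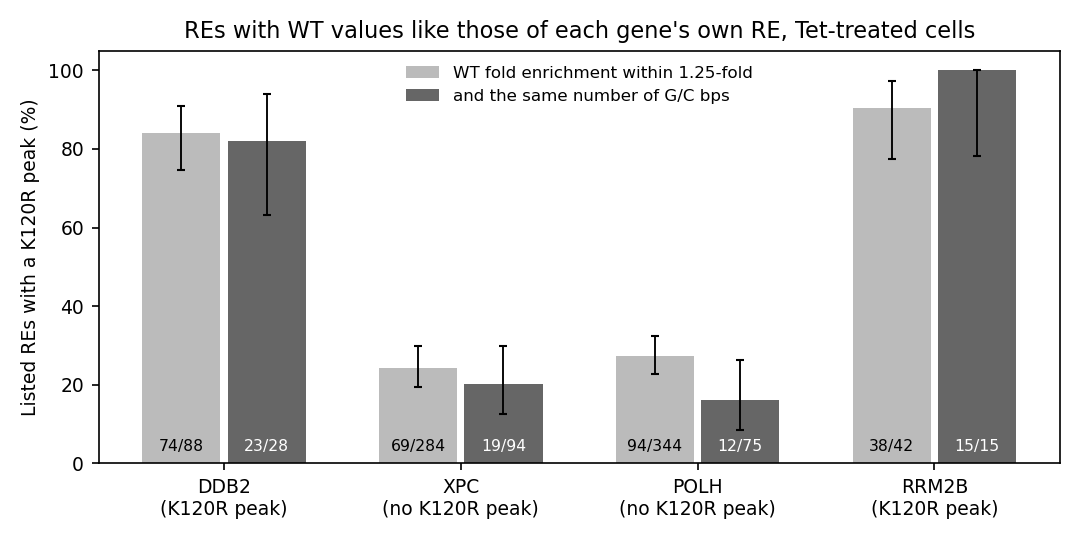
Percent of listed REs with a K120R peak in Tet-treated cells (y axis) among REs whose WT fold enrichment was within 1.25-fold of that of each gene's RE (light bars) and that also had its number of G/C bps (dark bars), with exact 95% intervals as error bars and counts inside the bars. The shares were above 80% around DDB2 and RRM2B, which had a K120R peak, and below 30% around XPC and POLH, which had none.

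The size of the K120R peak was also set beside these REs. At the 74 REs like DDB2 with a K120R peak, the median K120R fold enrichment was 13.1 and 6 lay below the 5.43 of DDB2, but the median number of fragments was 29.5 and 32 of the 74 lay below its 28. At the 38 REs like RRM2B the median fold enrichment was 14.97, with 6 below the 10.3 of RRM2B, and the median number of fragments was 32.0, equal to its own. By fragments, both peaks were near the middle of those with like WT fold enrichment. By fold enrichment, both lay below the lower quartile (9.28 for REs like DDB2 and 11.1 for REs like RRM2B). These REs were matched on WT fold enrichment and not on fragments, and only those with a K120R peak were counted.

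The summits also differed in base composition. Within 100 bp of the summit, G and C made up 66.2% of bases at DDB2, 70.1% at XPC and 60.2% at POLH, above 96.7%, 98.3% and 92.6% of WT Tet-treated peaks, and 48.3% at the intronic RRM2B peak, near the median of 46.8%. The WT peaks within 1 kb of a transcript start, where DDB2, XPC and POLH lie, had a K120R peak at 62 of 172 (36.0%, 28.9 to 43.7), against 24.8% of the other WT peaks. Like XPC and POLH, 110 of the 172 peaks near a start had no K120R peak (64.0%, 56.3 to 71.1). The part of base composition in these values was not tested.

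The listed REs that the study assigned to DNA repair, with that of RRM2B, which the study placed under metabolism, numbered 19. All 19 had a WT peak after Tet, 11 a K120R peak after Tet and 5 a WT peak before Tet. Of all 1356 listed REs 98.4% had a WT peak after Tet, and of those 40.6% had a K120R peak after Tet and 23.8% a WT peak before Tet. By WT fold enrichment RRM2B ranked 1, DDB2 3, POLH 12 and XPC 16. NSMCE2, a SUMO ligase subunit that acts in recombination, ranked 2, above DDB2, with a peak in the same 3 lists as DDB2 and RRM2B (6.05 in WT untreated, 50.2 in WT Tet-treated and 10.9 in K120R Tet-treated cells). ATL1, which the study lists under DNA repair, ranked 4 with 7.29, 40.1 and 13.9 in the same lists. Without the 4 genes, 9 of 15 had a K120R peak. ATM, the kinase that signals double-strand breaks, had 0 G/C bps and fold enrichments of 17.4 with WT and 15.9 with K120R p53. RAD51C, a recombination factor, also had 0 G/C bps, with 9.68 and 8.20. Their WT values lay near those of POLH and XPC or between those and DDB2, and unlike POLH and XPC they had a K120R peak. NBN, a subunit of the complex that binds broken ends, also had 0 G/C bps and a WT fold enrichment of 8.28, close to that of XPC, but no K120R peak. The NBN RE spans 21 bp in the genome and its positions were counted without the 1 base that the study lists as an insert. MGME1, a mitochondrial nuclease, had 1 G/C bp, 8.92 with WT and 14.4 with K120R p53. RAD51B and RAD23B, with 3 G/C bps like POLH, had WT fold enrichments of 5.43 and 5.34 and no K120R peak. Of the REs with 2 G/C bps, that of NSMCE2 had a K120R peak, while those listed as AA06 and TONSL had none. The WT fold enrichments of AA06 and TONSL after Tet were 16.1 and 9.05.

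**Figure D5:**
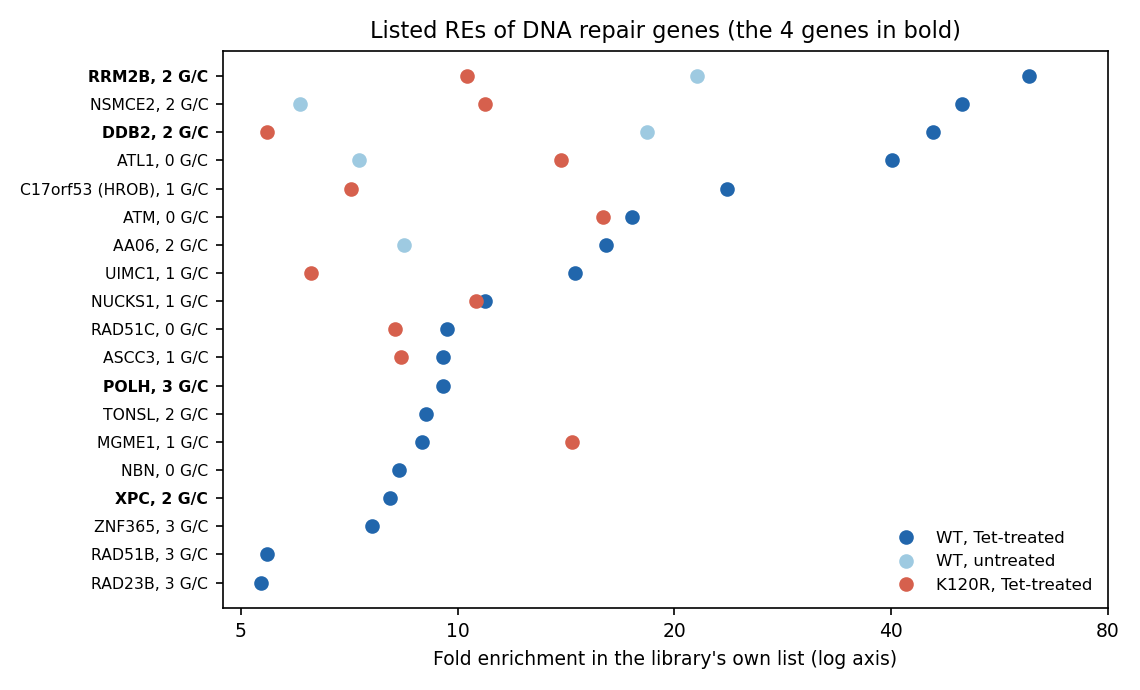
Fold enrichment in the library's own list (x axis, log scale) at the 19 listed REs of DNA repair genes, ordered by the WT Tet-treated value, with the number of G/C bps beside each name. RRM2B (62.2) and DDB2 (45.8) had ranks 1 and 3 with WT p53 after Tet, and no K120R point stands at POLH or XPC.

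Other repair genes were taken from a list of 145 genes without the 4. In WT Tet-treated cells 37 of them (25.5%, 18.7 to 33.4) had a peak, in K120R Tet-treated cells 15 (10.3%, 5.91 to 16.5), and in WT untreated cells 5. Against the shares of all genes given above, both intervals include the share of all genes after Tet (19.1% and 9.46%). For WT this depended on the threshold: at a -log10 q of at least 5 the list still had 37 genes while the share of all genes fell to 17.9%, below the interval. The strongest WT peaks of the 37 had a median fold enrichment of 7.33 and none reached 40, while DDB2 and RRM2B both did, as did 103 of all genes (0.511%). NSMCE2 and ATL1, which the study assigns to DNA repair but which that list does not hold, also did. XPC stood above 20 and below 17 of the 37. By process, 9 of 29 nucleotide excision repair genes had a WT peak after Tet, 5 of 19 translesion synthesis genes, 6 of 16 deoxynucleotide supply genes, 10 of 38 recombination and Fanconi anaemia genes, 3 of 8 mismatch repair genes, 2 of 21 base excision repair genes, 2 of 11 end joining genes and 0 of 3 direct reversal genes.

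REV3L, the catalytic subunit of the translesion polymerase zeta, had the strongest WT peak of that list and a peak in the same 3 lists as DDB2. Its summit had 36 fragments in WT untreated cells, 240 in WT Tet-treated cells and 71 in K120R Tet-treated cells. The K120R count (55.5 to 89.6) lay above the intervals of DDB2 and RRM2B and ranked 16 of 2023. By fold enrichment, REV3L (11.2, over a local background of 5) stood closer to RRM2B (10.3), so the size of the gap depended on the measure. WRN, EME1 and FEN1, which act in recombination or flap removal, followed REV3L with WT fold enrichments of 24.7, 19.5 and 18.9 and had no K120R peak, and ATM came next. The WRN peak lay in an intron, but that taken for EME1 lay 1461 bp outside the gene and within 1 kb of MRPL27, and that taken for FEN1 lay 23074 bp outside it, within 1 kb of FADS1 and FADS2. PCNA, the sliding clamp on which POLH works, had 16, 120 and 12 fragments in WT untreated, WT Tet-treated and K120R Tet-treated cells. Another 12 genes with a K120R peak had K120R fold enrichments from 5.01 at POLN to 15.9 at ATM. They were GTF2H2, MNAT1, POLN, NME1, NME2, SMUG1, RAD51C, MUS81, ATM, XRCC4, XRCC6 and PRKDC, where NME1 and NME2 share a peak, and POLN and XRCC6 had no WT peak.

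The genes most like each of the 4 in the percentile of their strongest peak over the 4 libraries were chosen with no regard to function. AEN and ISG20, which share their peaks, were nearest to DDB2, at a distance of 7.43 percentile points, with fold enrichments of 27.2, 25.4 and 5.42 in WT untreated, WT Tet-treated and K120R Tet-treated cells. GPHN was nearest to RRM2B, at 2.12 points, with 19.6, 66.2 and 10.3, followed by FRMD8 at 5.15 points. INPP4A and AXIN1 were nearest to XPC, and CCDC184 and OR10AD1, which share a peak, to POLH. For XPC and POLH this rests on 1 value, the WT Tet-treated one (8.08 for INPP4A, 8.04 for AXIN1 and 9.55 for CCDC184 and OR10AD1).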

How the data were processed

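p53 ChIP-seq was analysed in 4 libraries of H1299 cells, 1 per group. Reads that mapped uniquely were aligned by the authors with BWA-MEM to GRCh37 (hg19). Per the file headers, each library was compared with its own input in MACS 2.1.1.20160309, keeping 1 tag per position and q-values under 0.05. The deposited pileup is a signal, the fragments over the summit once MACS had brought the deeper of the ChIP and input libraries down to the shallower. Fold enrichment, as deposited, is a ratio of this pileup to the local background, with 1 added to both. The deposited p-values and q-values are on the -log10 scale. Narrow-peak and summit lists were not used.

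Fragments were recovered by undoing the scaling and were whole (within 0.02) for 100% of peaks. Local background was derived from pileup and fold enrichment. Shares have exact Clopper-Pearson intervals, fragments exact Poisson intervals, and ratios of fragments exact conditional binomial intervals. Genes and transcripts came from GENCODE on GRCh37. RE sequences, positions and function labels came from the study's source data, matched to the genome (26 of 1356 not as 1 unbroken run of 20 bp), with G/C bps counted from the listed letters and mismatches counted against the 20-bp p53 consensus on both strands. A peak covered an RE when they overlapped by at least 1 bp. The 20-bp search recovered all 500 sites planted in simulated sequence, and the gene rule all 1000 planted peaks. Python 3.11.15, numpy 2.4.6, scipy 1.17.1, pandas 2.3.3 and pysam 0.24.0 were used.

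The members and lists were chosen with earlier results of these data known. Named genes were the 4 genes, repair genes with a K120R peak after Tet, the 5 with the largest WT fold enrichment, for each of the 4 the 2 most alike over the libraries, and CDKN1A, MDM2, GADD45A, PLK2 and PLK3 for comparison. 1 gene that the rule names is not reported here. NSMCE2, ATL1, NBN, MGME1, RAD51B, RAD23B, AA06 and TONSL were named after their values were seen. Alternatives were stricter peak thresholds, other gene windows and other measures of rank. The labels and the methods give the Tet dose in different units, so it is not printed.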

Additional observations from a re-analysis of the deposited data

How the results depend on the processing

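With 1 library per group, no replicate could be left out, and the results are limited by the counting error of single libraries. No paired analysis was possible for the same reason. The number of the 4 genes with a peak held in each list under every alternative except 1: at a -log10 q of at least 10, only RRM2B of the 4 kept its K120R peak after Tet (1 gene). Of 99 values under an alternative, 64 stayed and 35 moved, where a count moved beyond 1.5 times the reported one, a percent beyond its 95% interval, and a number of mismatches or G/C bps at any change.

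The share of all protein-coding genes with a WT peak after Tet was 17.9%, 13.8% and 16% at a -log10 q of at least 5, of at least 10 and a fold enrichment of at least 5, and 12.2%, 13.9% and 26.9% with windows of 5, 10 and 50 kb. The K120R shares after Tet were 6.65%, 3.52%, 8.10%, 6.03%, 6.97% and 13.5%. At a -log10 q of at least 10, 5 genes of the repair list had a K120R peak. The K120R share of the repair list, 10.3% against 9.46% of all genes, turned below that of all genes at a -log10 q of at least 10 (3.45% against 3.52%) and with a 10 kb window (6.90% against 6.97%). The WT share of the list was above that of all genes under each of these alternatives.

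In WT Tet-treated cells, DDB2 lay above 99.2% and RRM2B above 99.8% of peaks by -log10 q, and above 95.6% and 98.7% of those that overlap a listed RE. XPC lay above 78.3% by pileup, 70.1% by -log10 q and 17.8% of the peaks with a listed RE, and POLH above 79.8%, 73.6% and 26.8%.

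The K120R share of REs with 0, 1 and 2 G/C bps was 68.0%, 48.0% and 27.0% at a -log10 q of at least 5. At 10, with 0 to 4 G/C bps, it was 46.8%, 32.8%, 18.8%, 8.65% and 4.76%. Alternatives chosen after seeing the data gave, for REs like those of DDB2, XPC, POLH and RRM2B, 60.7%, 7.45%, 6.67% and 93.3% at a -log10 q of at least 10, and 76.5%, 19.3%, 12.8% and 86.7% within 1.5-fold. A stricter threshold keeps fewer peaks by construction, and the cause of the other moves was not tested.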
